A study of Homo sapiens with 9 samples.

Results

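The genes described here form the amino acid response driven by ATF4, a set of 40 genes listed by symbol. They comprise 12 regulators and stress effectors, 9 enzymes of amino acid, serine and one-carbon metabolism, 7 amino acid transporters and 12 cytosolic tRNA synthetases. All 40 were found among the 19317 genes of the deposited table, and all 40 passed the filter on low counts. Their transcripts were measured by RNA sequencing in HepG2, an established human line derived from a hepatocellular carcinoma, in 3 groups of 3 samples. The DNL samples model de novo lipogenesis: for 1 week their medium was DMEM containing insulin at 10 µg/ml together with the liver X receptor agonist T0901317 at 10 µM. The OA samples spent 6 hours in DMEM to which oleic acid at 25 µM had been added, with 11% bovine serum albumin as its carrier. WT samples were the controls and stayed in RPMI without these additions. Each medium held 10% serum and 1% antibiotics, and all samples carry the same genotype label. DMEM and RPMI differ in their amino acids, and no group received DMEM alone or albumin alone, so medium, carrier, compound and duration cannot be told apart in any comparison with WT. No label says that the samples of a group were separate cultures, so p-values rest on a spread that may be technical.

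ATF4 is a transcription factor whose mRNA is translated best when the initiation factor eIF2 is phosphorylated. Several kinases do this, among them EIF2AK4 (GCN2), which senses uncharged tRNA, and EIF2AK3 (PERK), which senses misfolded protein in the endoplasmic reticulum. With partners of the C/EBP family, ATF4 binds composite C/EBP-ATF elements near genes that import amino acids, make asparagine, serine and cysteine, and charge tRNAs. Because its protein is controlled largely at translation, the level of ATF4 mRNA does not give the amount of ATF4 protein, which was not measured here. In hepatocytes this programme is known to respond to amino acid shortage and to stress of the endoplasmic reticulum.

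The core of the composite element, TGATGNAA, was searched on either strand of the RefSeq promoter windows (GRCh38.p14), from 250 bases before to 50 bases after each start. A gene counted where any of its windows held the element, and the members had 55 windows. Of the 34 members with an entry, 14 held it (41.2%), against 558 of 15294 genes of the count table with an entry (3.65%). Among these members were 7 of 10 tRNA synthetases, 4 of 7 transporters, 2 of 11 regulators and 1 of 6 enzymes. This describes the list and is not evidence of regulation in these samples. The windows below are from genes described later, each read along the gene's own strand, with the 8 matching bases in capitals. TTGCATCA and TTTCATCA are the element read from the opposite strand.
ASNS (chr7:97872439-97872506, minus strand): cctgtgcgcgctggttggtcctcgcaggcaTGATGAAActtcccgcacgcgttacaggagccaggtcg
CEBPG (chr19:33374041-33374108, plus strand): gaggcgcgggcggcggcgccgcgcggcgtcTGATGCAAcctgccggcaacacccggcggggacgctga
SLC1A5 (chr19:46784874-46784941, minus strand): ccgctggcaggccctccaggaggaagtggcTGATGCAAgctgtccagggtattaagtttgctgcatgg
CHAC1 (chr15:40953232-40953299, plus strand): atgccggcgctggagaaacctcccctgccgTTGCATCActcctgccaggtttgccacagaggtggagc
AARS1 (chr16:70289656-70289723, minus strand): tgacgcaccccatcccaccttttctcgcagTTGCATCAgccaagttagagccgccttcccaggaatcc
IARS1 (chr9:92293698-92293740, minus strand): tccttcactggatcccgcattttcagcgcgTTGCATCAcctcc
GARS1 (chr7:30594815-30594877, plus strand): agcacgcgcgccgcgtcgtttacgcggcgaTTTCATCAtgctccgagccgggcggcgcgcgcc
The match began 68 bases before the RefSeq start in ASNS, 42 in CEBPG, 97 in SLC1A5, 209 in CHAC1, 187 in AARS1, 13 in IARS1 and 33 in GARS1. Members with a match had a median log2 fold change of -0.50 in DNL against WT, and the 20 without one had -0.73. In OA against WT these medians were -0.30 and -0.27. The 6 members without an entry, NUPR1, PSPH, SHMT2, ALDH1L2, YARS1 and LARS1, had medians of -0.75 in DNL against WT and -1.15 in OA against WT.

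The 3 DNL libraries held 16447398 to 36147431 estimated counts, the 3 OA libraries 7836520 to 28636903 and the 3 WT libraries 26425694 to 43043347. Samples of a group correlated at 0.982 or more on log2 CPM, against at most 0.964 between groups. Levels are CPM, counts at a common library total after TMM scaling (trimmed mean of M values). The OA libraries stood apart from the others. They carried transcripts of fibrillar collagens in unequal amounts, with COL1A1 at 19.3, 85.0 and 537 CPM in OA replicates 1, 2 and 3, against at most 0.706 in DNL and 0.990 in WT. The sum over 6 fibroblast and stellate markers lay between 3.16 and 3.39 CPM in DNL, between 36.7 and 875 CPM in OA and between 10.8 and 14.9 CPM in WT, while COL1A2 had no count in any DNL or WT library. Of these 6 markers COL1A1, COL1A2 and COL3A1 carried the OA sum. DCN did not exceed 3.56 CPM and LUM 0.713 CPM in any library, and PDGFRB, at 2.37, 4.35 and 7.60 CPM in OA against 9.46, 11.6 and 8.71 CPM in WT, was called lower in OA. KRT7, a cholangiocyte marker, was highest in the same OA replicate, at 0.474, 1.48 and 8.19 CPM in OA replicates 1, 2 and 3, and had no count in DNL or WT. KRT19, of the same list, was at 493 to 613 CPM in OA and 89.2 to 95.1 CPM in WT, highest in OA replicate 1. The other cholangiocyte markers did not follow. SOX9 was called lower in OA than in WT, at means of 254 and 320 CPM, and EPCAM was not called, at 60.9 and 54.2 CPM. The 9 hepatocyte markers summed to between 77088 and 79210 CPM in DNL, 14077 and 16073 CPM in OA, and 43124 and 44789 CPM in WT. APOB carried most of each sum, at 49004 CPM on average in DNL, 8768 in OA and 30206 in WT. Against WT, 8 of the 9 were called higher in DNL, all but AFP, and 8 lower in OA, all but TTR. All 9 were present in every library, so the liver-type identity of the line was visible throughout, at different marker levels. The 6 macrophage and leukocyte markers summed to 1618 to 1712 CPM in DNL, 1057 to 1092 CPM in OA and 979 to 990 CPM in WT, nearly all of it LYZ. CD68 was at 29.9 to 52.8 CPM across libraries, CD14 at 5.57 to 7.52 CPM in DNL, 0.237 to 0.356 CPM in OA and 2.20 to 3.22 CPM in WT, PTPRC stayed under 1 CPM, and CSF1R and CD163 were at or near 0 throughout. The part of these markers in the OA results was not tested. OA counts are therefore also given without OA replicate 3 and with OA replicate 1 as the lone OA library, an alternative chosen after the collagen values were seen, in which the lone library is assumed to vary like the other groups. Fewer cells of a type and less RNA per cell cannot be told apart in bulk RNA.

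DNL was compared with WT first. In DNL 35 of the 40 genes fell, where 26.8% of all tested genes were called lower. The members and other lists were chosen with earlier results of these data known. Setting them beside all tested genes, here and below, describes the lists and is no test of them. One member rose, IARS1, where 27.1% of all tested genes were called higher, and STC2, MARS1, NARS1 and CARS1 were not called. Together 36 members were called, where 53.8% of all genes were. A gene counts as called where the quasi-likelihood test of edgeR gave a p under 0.05 after Benjamini-Hochberg adjustment over all tested genes. The members' median log2 fold change was -0.67, against -0.02 over all tested genes, and 9 members fell at least 2-fold, where 5.07% of all genes did so. In 36 members all DNL samples lay below all WT samples, as in 32.8% of tested genes. Of all counts, the members took 0.845 to 0.879% in DNL libraries, 1.27 to 1.34% in OA libraries and 1.47 to 1.48% in WT libraries. Scaling by library totals alone moved the median of all genes to -0.18 and the share of calls that were higher to 32.2%, against 50.3% with the main scaling. Under it the members' median was -0.83 and 39 were called lower, STC2, MARS1, NARS1 and CARS1 among them, and IARS1 was not called.

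OA was then compared with WT. Here 26 members fell, where 29.7% of all tested genes were called lower, and 6 rose, where 30.4% were called higher. The 6 were ATF5, DDIT3, TRIB3, PPP1R15A, SLC3A2 and CARS1. ATF4 itself, CEBPB, CHAC1, SESN2, MTHFD2, MARS1, IARS1 and TARS1 were not called. The median log2 fold change was -0.36, against -0.03 over all tested genes. At least 2-fold lower were 10 members (7.95% of all genes), and at least 2-fold higher were 2, PPP1R15A and SLC3A2 (8.88%). Without OA replicate 3, 29 members were called lower. All OA samples lay above all WT samples in 5 members and below them in 26, as in 32.5% and 33.2% of all tested genes. Altogether 32 members were called, where 60% of all genes were. With OA replicate 1 as the lone OA library, 5 were called higher and 29 lower, with a median of -0.43. Both comparisons share the WT samples, so their values are set side by side.

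**Figure D1:**
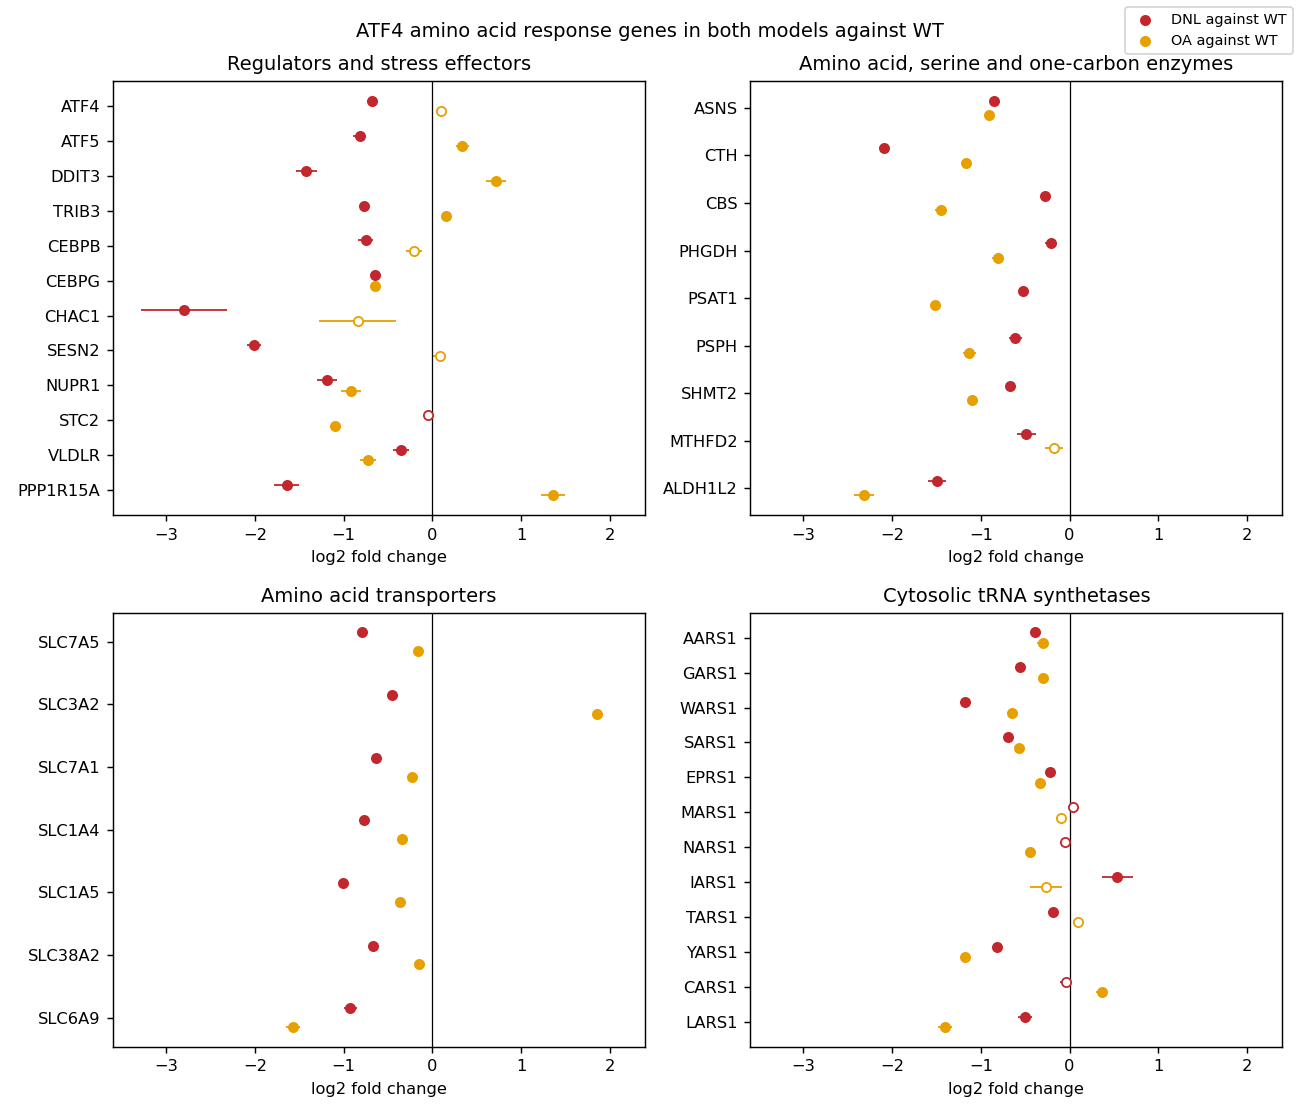
Log2 fold change of each of the 40 genes in DNL against WT (red) and in OA against WT (yellow), by role, with bars of 1 SE and filled points for called genes. Red points lie left of 0 for nearly all genes, while yellow points lie left for the enzymes and on both sides for the regulators.

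Roles differed in how the models placed them. Summed levels of the regulators were 1526 ± 4.70 CPM in DNL, 2537 ± 233 CPM in OA and 2479 ± 33.0 CPM in WT, where the error is the SD over 3 samples, as throughout. Enzymes summed to 1605 ± 51.6 CPM in DNL, 1207 ± 58.8 in OA and 2525 ± 11.8 in WT, so here OA was the lower model. Transporters summed to 3768 ± 83.3 CPM in DNL, 6052 ± 99.7 in OA and 6222 ± 43 in WT. Synthetases summed to 2529 ± 68.2 CPM in DNL, 2455 ± 86.4 in OA and 3166 ± 82.8 in WT. These sums are led by the most abundant members, which per kilobase of exon in WT were SLC38A2, PSAT1, SLC7A5, ATF4 and TRIB3.

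Among the 12 regulators and stress effectors, 11 fell in DNL with a median log2 fold change of -0.80, where 26.8% of all tested genes fell. In OA 4 rose and 4 fell with a median of -0.06, where 30.4% and 29.7% of all tested genes did. The OA counts are near these shares and are not read as a result about the regulators. ATF4 (chromosome 22, 39519695 to 39522685 in GENCODE 29 on GRCh38) had 396, 395 and 394 CPM in DNL, 606, 722 and 703 CPM in OA, and 657, 624 and 614 CPM in WT. The DNL samples lay below every other sample and the OA and WT samples overlapped. In DNL it fell 1.6-fold (log2 fold change -0.68, SE 0.0567, adjusted p 5.48e-07), and OA against WT gave 0.10 (SE 0.0564, adjusted p 0.144). ATF4 was called higher in OA without OA replicate 1 (0.17, adjusted p 0.00147) and with library totals (0.17, adjusted p 0.0128, in a range of 0.00147 to 0.502 over 19 alternatives).

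DDIT3 encodes CHOP, a transcription factor that follows ATF4 under stress. It had 16.3, 15.1 and 16.8 CPM in DNL, 55.1, 77.9 and 80.2 CPM in OA, and 44.3, 41.9 and 43.2 CPM in WT. No sample of 1 group reached into another. Relative to WT it fell 2.68-fold in DNL (log2 fold change -1.42, SE 0.122, adjusted p 1.3e-06) and rose in OA (0.72, SE 0.115, adjusted p 0.000188). DDIT3 overlaps MARS1 by 982 bases and MBD6 by 1028 bases, both on the opposite strand. Since it is not given whether the counting used strand, reads there cannot be assigned with certainty. Altogether 10 members overlap another protein coding gene of the table, the others being ATF5, SHMT2, MTHFD2, ALDH1L2, SLC1A5, SLC6A9, WARS1, MARS1 and YARS1. These are overlaps of whole gene spans, introns included, and need not hold shared exons.

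PPP1R15A encodes GADD34, the phosphatase subunit that brings about dephosphorylation of eIF2 and so closes the response. It showed the widest separation between the models of all 40 genes, with 36.2, 37.3 and 36.8 CPM in DNL, 225, 344 and 314 CPM in OA, and 115, 113 and 117 CPM in WT. Every DNL sample was below and every OA sample above the WT samples. The fall in DNL was 3.13-fold (log2 fold change -1.64, SE 0.140, adjusted p 1.24e-05), and the rise in OA was 1.36 on the log2 scale (SE 0.132, adjusted p 2.31e-05).

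ATF5, a related factor whose mRNA is also under translational control, had 30.9, 32.5 and 27.1 CPM in DNL, 64.2, 70.9 and 65.8 CPM in OA, and 54.3, 53.6 and 51.3 CPM in WT. TRIB3, a pseudokinase that restrains ATF4 and AKT, had 408, 407 and 429.8 CPM in DNL, 726, 843 and 794 CPM in OA, and 688, 696 and 742 CPM in WT. DNL samples of both genes lay below all others, whereas OA samples lay above WT for ATF5 and overlapped WT for TRIB3. ATF5 fell by 0.82 on the log2 scale in DNL (adjusted p 8.53e-07) and rose by 0.34 in OA (adjusted p 0.00118). TRIB3 fell by 0.77 in DNL (adjusted p 7.2e-08), and its rise of 0.15 in OA (adjusted p 0.0221) rested on single libraries. That call was lost without OA replicate 2 (0.122) or OA replicate 3 (0.0515), without WT replicate 1 (0.0750) or without WT replicate 2 (0.0814), and with OA replicate 1 alone (0.640), in a range of 0.00147 to 0.640 over 19 alternatives.

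SESN2 and CHAC1 fell most in DNL among the regulators. SESN2, a leucine-binding sestrin that restrains mTORC1, had 25.1, 28.3 and 30.5 CPM in DNL, 108, 128 and 119 CPM in OA, and 113, 109.7 and 114 CPM in WT. Its DNL level was 4.02-fold below WT (log2 fold change -2.01, SE 0.0773, adjusted p 3.42e-10), while OA and WT samples overlapped (0.08, adjusted p 0.354). CHAC1, which breaks down glutathione, was scarce, with 0.308, 0.333 and 0.332 CPM in DNL, 0.395, 1.38 and 2.14 CPM in OA, and 2.76, 1.83 and 2.23 CPM in WT. These rest on 10, 5 and 8 counts in DNL, 5, 42 and 18 in OA, and 120, 54 and 61 in WT. The DNL samples lay below all others (log2 fold change -2.80, SE 0.482, adjusted p 0.000295), and OA samples spread from near the DNL level into the WT range. CHAC1 was not called in OA (-0.84, adjusted p 0.112), was called lower without OA replicate 3 (-1.23, adjusted p 0.0281), and reached -2.52 (adjusted p 0.00317) with OA replicate 1 alone, in a range of 0.00317 to 0.314 over the alternatives.

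**Figure D2:**
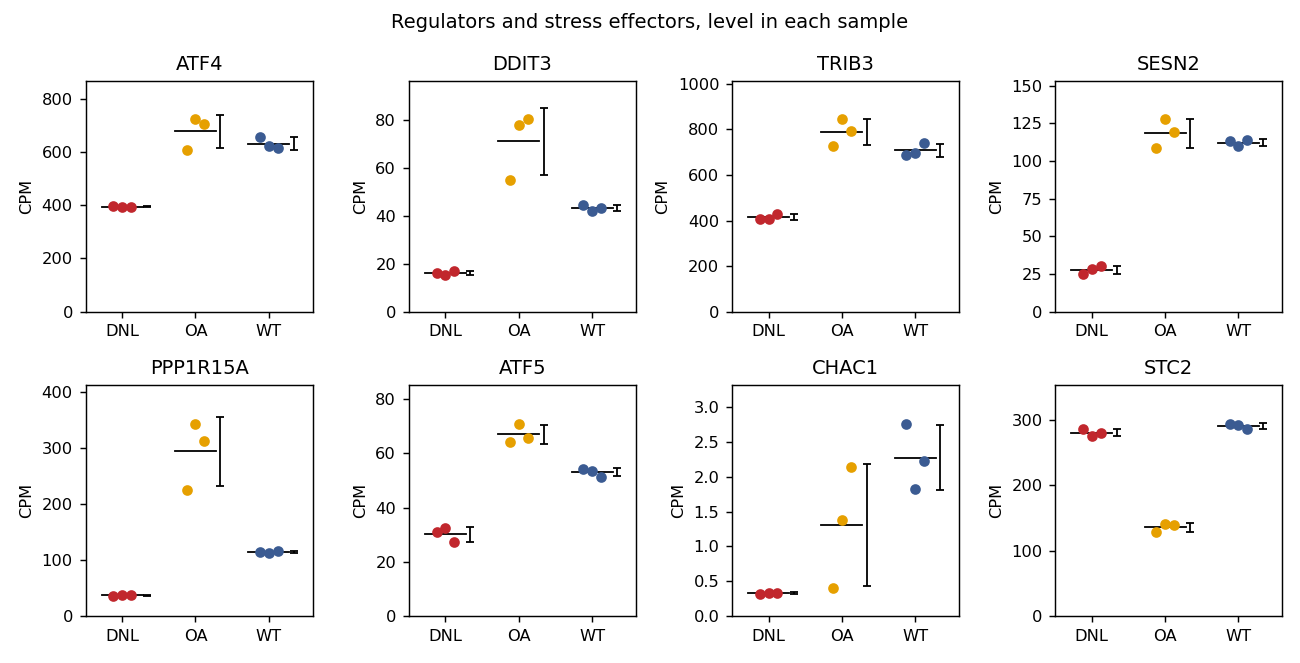
CPM of 8 regulators and stress effectors in each sample of DNL, OA and WT, with the group mean as a line and a bar of ± 1 SD. DNL points lie below WT points in all 8 genes, by little for STC2, and OA points lie above WT for DDIT3, PPP1R15A and ATF5 and below it for STC2.

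Other regulators were lower in OA than in WT or in both models. NUPR1, a small stress-induced chromatin protein, had 9.24, 9.11 and 10.4 CPM in DNL, 9.95, 12.9 and 11.5 CPM in OA, and 23.0, 22.2 and 20.3 CPM in WT. STC2, a secreted glycoprotein, had 285, 275 and 280.4 CPM in DNL, 128, 140.5 and 139 CPM in OA, and 294, 293 and 286 CPM in WT. VLDLR, a receptor for triglyceride-rich lipoproteins, had 32.1, 27.6 and 32.7 CPM in DNL, 22.1, 25.4 and 23.5 CPM in OA, and 36.7, 43.2 and 38.3 CPM in WT. All samples of both models lay below all WT samples in these 3 genes, though for STC2 the DNL samples came within reach of WT, at 285 against 286 CPM. NUPR1 fell 2.28-fold in DNL (adjusted p 1.73e-06) and 1.89-fold in OA (adjusted p 1.59e-05). STC2 fell 2.14-fold in OA (adjusted p 3.41e-10), and in DNL its log2 fold change was -0.05 (adjusted p 0.292). VLDLR fell 1.27-fold in DNL (adjusted p 0.00519) and 1.65-fold in OA (adjusted p 1.96e-05). The dimer partners of ATF4 both fell in DNL. CEBPG averaged 137 ± 1.31 CPM in DNL, 136 ± 4.38 in OA and 214 ± 6.02 in WT, and fell in both models (-0.64 and -0.65). CEBPB averaged 147 ± 10.8 CPM in DNL, 213 ± 26.6 in OA and 247 ± 15 in WT, and was called only in DNL (-0.75, adjusted p 2.89e-05). In OA its value was -0.21 (adjusted p 0.0598), called lower without OA replicate 2 (0.00368), without WT replicate 2 (0.0491), with OA replicate 1 alone (-0.24, 0.0381) or with DESeq2 (0.0498), in a range of 0.00368 to 0.171.

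All 9 enzymes fell in DNL, with a median log2 fold change of -0.61, and 8 of 9 fell in OA, with a median of -1.13. The shares of all tested genes called lower were 26.8% in DNL and 29.7% in OA. ASNS, which makes asparagine (chromosome 7, 97852118 to 97872542), had 208, 216 and 213 CPM in DNL, 197, 204 and 214 CPM in OA, and 395, 374 and 381 CPM in WT. Both models lay at about the same level, below every WT sample. The fall was 1.81-fold in DNL (log2 fold change -0.85, SE 0.0414, adjusted p 2.88e-09) and 1.87-fold in OA (-0.90, SE 0.0419, adjusted p 1.65e-09).

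CTH and CBS run transsulfuration, the route from homocysteine to cysteine, and the models placed them in opposite order. CTH had 25.0, 24.5 and 23.7 CPM in DNL, 45.3, 47.4 and 46.4 CPM in OA, and 107, 105 and 100.3 CPM in WT. CBS had 81.1, 83.6 and 82.3 CPM in DNL, 38, 34.1 and 37.9 CPM in OA, and 104, 95.0 and 99.96 CPM in WT. DNL was lowest for CTH and OA was lowest for CBS, with no overlap between groups in either gene. CTH fell 4.26-fold in DNL (adjusted p 1.24e-11) and 2.24-fold in OA (adjusted p 1.79e-09). CBS fell 1.21-fold in DNL (adjusted p 0.00115) and 2.74-fold in OA (adjusted p 6.66e-10). CBS has a near-identical annotated copy, between which the estimator may split reads.

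The serine pathway fell more in OA than in DNL. PHGDH, which opens the route from glycolysis, had 116, 123 and 130.5 CPM in DNL, 76.9, 87.5 and 78.1 CPM in OA, and 146, 142 and 139 CPM in WT. PSAT1, the aminotransferase of the next step, had 532, 531 and 561 CPM in DNL, 268, 281 and 268 CPM in OA, and 786, 782 and 773 CPM in WT. In both genes the groups did not overlap and OA was lowest. PSAT1 fell 1.44-fold in DNL (adjusted p 7.68e-08) and 2.86-fold in OA (log2 fold change -1.52, SE 0.0375, adjusted p 7.26e-12). PHGDH fell 1.16-fold in DNL (adjusted p 0.00854) and 1.75-fold in OA (adjusted p 1.45e-07). Its DNL call was lost without DNL replicate 1 (0.0650) or WT replicate 1 (0.05002), in a range of 0.000133 to 0.0650. Set directly against OA, DNL was higher for PHGDH (0.60, adjusted p 2.12e-06) and PSAT1 (0.99, adjusted p 1.33e-10). PSPH, which frees serine from phosphoserine, averaged 64.6 ± 4.82 CPM in DNL, 45.2 ± 3.56 in OA and 98.6 ± 5.98 in WT, fell in both models (-0.61 and -1.13) and was higher in DNL than in OA (0.52, adjusted p 5.95e-05).

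The mitochondrial folate enzymes did not move alike in OA. SHMT2, which takes a carbon unit from serine, had 253, 266 and 262 CPM in DNL, 195, 199.8 and 187 CPM in OA, and 421, 412 and 411 CPM in WT. MTHFD2, which oxidises the folate-bound unit, had 227, 218 and 261 CPM in DNL, 243, 312 and 321 CPM in OA, and 318, 348 and 326 CPM in WT. ALDH1L2, which converts it to carbon dioxide, had 59.5, 65.5 and 58.7 CPM in DNL, 27.2, 35.9 and 40.7 CPM in OA, and 165, 169.6 and 182 CPM in WT. SHMT2 and ALDH1L2 were in the order WT, DNL, OA without overlap, while OA samples of MTHFD2 reached into both other groups. ALDH1L2 fell 2.82-fold in DNL (adjusted p 5.23e-07) and 5.0-fold in OA (log2 fold change -2.32, SE 0.113, adjusted p 2.05e-08), the largest fall of a member in OA. SHMT2 fell 1.59-fold in DNL (adjusted p 1.15e-08) and 2.14-fold in OA (adjusted p 1.42e-10). MTHFD2 fell 1.40-fold in DNL (adjusted p 0.00375) and was not called in OA (-0.18, adjusted p 0.182). With OA replicate 1 alone it was called lower in OA (-0.44, adjusted p 0.00712, in a range of 0.00712 to 0.461).

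**Figure D3:**
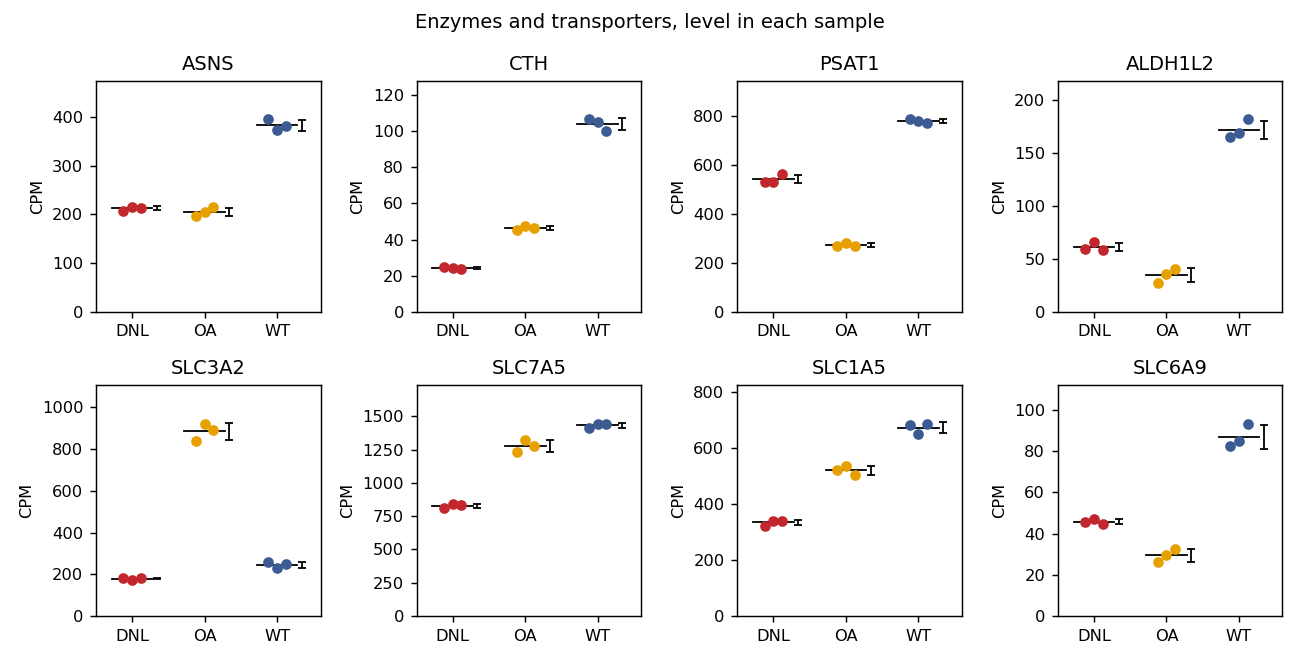
CPM of 4 enzymes and 4 transporters in each sample of DNL, OA and WT, with the group mean as a line and a bar of ± 1 SD. All 8 genes lie below WT in DNL, and in OA SLC3A2 alone lies above WT, at 841 to 922 CPM.

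All 7 transporters fell in DNL, with a median log2 fold change of -0.77, where 26.8% of all tested genes fell. In OA 6 fell, SLC6A9 by most, with a median of -0.23 over the 7, and SLC3A2 rose. There 29.7% of all tested genes were called lower and 30.4% higher. SLC3A2 (chromosome 11, 62856102 to 62888875), the heavy chain that carries SLC7A5 and SLC7A11 to the cell surface, had 179.6, 175 and 183 CPM in DNL, 841, 922 and 894 CPM in OA, and 257, 230.1 and 247 CPM in WT. Its partner SLC7A5, the light chain that exchanges large neutral amino acids, had 809.95, 840.4 and 830.3 CPM in DNL, 1229, 1324 and 1278 CPM in OA, and 1409, 1442 and 1444 CPM in WT. The pair fell together in DNL and parted in OA. SLC3A2 fell by 0.45 on the log2 scale in DNL (SE 0.0483, adjusted p 4.82e-06) and rose by 1.86 in OA (SE 0.0489, adjusted p 1.28e-11). SLC7A5 fell by 0.79 in DNL (SE 0.0368, adjusted p 1.83e-09) and by 0.16 in OA (SE 0.0366, adjusted p 0.00169). Per kilobase of exon, the ratio of SLC3A2 to SLC7A5 was 0.203, 0.190 and 0.202 in DNL, 0.627, 0.638 and 0.641 in OA, and 0.167, 0.146 and 0.157 in WT. The ratio was highest in every OA sample. SLC7A11, the cystine light chain and no member, had 319, 292 and 317 CPM in DNL, 391, 435 and 438 CPM in OA, and 379.9, 399 and 393 CPM in WT. It fell in DNL (-0.34, adjusted p 8.28e-05), and in OA, where samples overlapped WT, it was not called (0.11, adjusted p 0.0784).

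SLC1A5 and SLC1A4 exchange small neutral amino acids such as glutamine, serine and alanine. SLC1A5 had 322, 338 and 341 CPM in DNL, 521, 535 and 504 CPM in OA, and 679.9, 649 and 686 CPM in WT. SLC1A4 had 137, 150.2 and 138 CPM in DNL, 181, 195 and 193 CPM in OA, and 238, 247 and 239.6 CPM in WT. Both stood in the order WT, OA, DNL without overlap. SLC1A5 fell 2.01-fold in DNL (adjusted p 4.19e-10) and 1.29-fold in OA (adjusted p 3.67e-06), and SLC1A4 fell 1.71-fold (adjusted p 2.32e-08) and 1.27-fold (adjusted p 3.03e-05). SLC6A9, a glycine transporter, had 45.4, 47.2 and 44.6 CPM in DNL, 26.2, 29.5 and 32.3 CPM in OA, and 82.4, 85.1 and 93.4 CPM in WT. It was the transporter for which OA lay lowest, falling 1.90-fold in DNL (adjusted p 2.83e-07) and 2.97-fold in OA (adjusted p 2.82e-09). SLC7A1, which carries cationic amino acids, averaged 463 ± 3.98 CPM in DNL, 613 ± 35.3 in OA and 720.4 ± 18.3 in WT (-0.64 and -0.23, both called). SLC38A2, the sodium-coupled neutral transporter, averaged 1779 ± 76.6 CPM in DNL, 2538 ± 78.9 in OA and 2825 ± 62.3 in WT (-0.67 and -0.15, both called). Its OA call was lost with library totals (adjusted p 0.0935) and with OA replicate 1 alone (0.107, in a range of 0.000894 to 0.107).

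Of the 12 cytosolic tRNA synthetases, which load amino acids onto tRNA, 8 fell in each model. Their median log2 fold changes were -0.31 in DNL and -0.32 in OA. The shares of all tested genes called lower were 26.8% in DNL and 29.7% in OA. WARS1, for tryptophan, had 124, 107 and 115 CPM in DNL, 160.1, 173 and 169 CPM in OA, and 272, 267 and 252 CPM in WT. YARS1, for tyrosine, had 143, 142 and 145 CPM in DNL, 108, 114 and 114 CPM in OA, and 250.4, 255 and 256 CPM in WT. LARS1, for leucine, had 108, 94.2 and 107 CPM in DNL, 48.7, 56.9 and 60.6 CPM in OA, and 153, 138 and 147 CPM in WT. All samples of both models lay below WT in these 3 genes, with DNL lowest for WARS1 and OA lowest for YARS1 and LARS1. WARS1 fell 2.27-fold in DNL (adjusted p 2.06e-09) and 1.57-fold in OA (adjusted p 4.27e-07). YARS1 fell 1.77-fold in DNL (adjusted p 1.73e-09) and 2.26-fold in OA (adjusted p 7.76e-11). LARS1 fell 1.42-fold in DNL (adjusted p 0.000102) and 2.64-fold in OA (adjusted p 1.18e-08).

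AARS1, for alanine, had 373, 376 and 322 CPM in DNL, 354, 402 and 383 CPM in OA, and 476, 469 and 460.1 CPM in WT. SARS1, for serine, had 127, 129 and 122 CPM in DNL, 133, 138 and 143 CPM in OA, and 213, 199 and 199.6 CPM in WT. Both models lay below WT, with log2 fold changes of -0.39 and -0.30 for AARS1 and -0.70 and -0.57 for SARS1. GARS1, for glycine, and EPRS1, for glutamate and proline, also fell in both models, by 0.55 and 0.30 for GARS1 and by 0.22 and 0.34 for EPRS1. NARS1, for asparagine, fell in OA (-0.45, adjusted p 3.31e-07) with 304 ± 6.48 CPM in DNL, 229.7 ± 5.55 in OA and 314 ± 6.57 in WT. TARS1, for threonine, averaged 235 ± 11.0 CPM in DNL, 287 ± 11.0 in OA and 268 ± 19.1 in WT. It fell in DNL (-0.19, adjusted p 0.0101), a call lost without WT replicate 1 (0.0749, in a range of 2.92e-05 to 0.0749). In OA it gave 0.10 (adjusted p 0.138) and was called higher without WT replicate 1 (0.0181) and with library totals (0.00867, in a range of 0.00867 to 0.684).

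CARS1, for cysteine, was the synthetase that rose in OA. It had 76.4, 85.8 and 81.5 CPM in DNL, 104, 117 and 102 CPM in OA, and 86.8, 81.5 and 82.5 CPM in WT, with OA above every other sample (0.37, adjusted p 0.000254). IARS1, for isoleucine, rose in DNL, with 255, 205 and 247 CPM in DNL, 136, 104 and 172 CPM in OA, and 157, 174 and 157 CPM in WT. All DNL samples were above WT, and the OA and WT samples overlapped. The DNL value was 0.54 (SE 0.173, adjusted p 0.0325), and the call was lost without DNL replicate 1 (0.0887), DNL replicate 3 (0.0866), OA replicate 1 (0.0585), WT replicate 1 (0.0855), WT replicate 2 (0.0564) or WT replicate 3 (0.0911), in a range of 0.000825 to 0.112. In OA IARS1 was called lower only without OA replicate 3 (-0.45, adjusted p 0.0215, in a range of 0.0215 to 0.578). MARS1, for methionine, averaged 269 ± 12.8 CPM in DNL, 246 ± 19.5 in OA and 262 ± 2.45 in WT. It was called in neither comparison, apart from a lower call in OA without OA replicate 3 (-0.15, adjusted p 0.0315) or with OA replicate 1 alone (-0.22, adjusted p 0.00696), in a range of 0.00696 to 0.640, and a lower call in DNL with library totals (-0.13).

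Between the models themselves, 15 members were higher in DNL than in OA, where 31.9% of all tested genes were, and 21 were lower, where 30.9% were. The 36 called compare with 62.8% of all genes. The median log2 fold change was -0.26, against 0.01 over all tested genes, and -0.065 with OA replicate 1 as the lone OA library. Library totals alone moved the median of all genes to -0.22 and that of the members to -0.49. The share of calls that were higher became 33.9%, against 50.8%. This scaling gave CEBPG, ASNS, EPRS1 and MARS1 a negative sign and ended the call of VLDLR (0.14, adjusted p 0.205). Under it CEBPG (adjusted p 0.000316), NUPR1 (0.00237), ASNS (0.00207), AARS1 (0.000166) and EPRS1 (0.0219) were called lower in DNL than in OA. Regulators were mostly lower in DNL, with 8 lower and 2 higher, as were transporters, with 6 lower and 1 higher. Enzymes were mostly higher in DNL, with 6 higher and 2 lower. Synthetases were divided, with 6 higher and 5 lower. The lowest values in DNL against OA were those of PPP1R15A (-3.01, SE 0.144, adjusted p 1.57e-07), SLC3A2 (-2.31, SE 0.05, adjusted p 1.1e-12), DDIT3 (-2.14), SESN2 (-2.09) and CHAC1 (-1.96). CHAC1 was no longer called with OA replicate 1 alone (-0.29, adjusted p 0.757, in a range of 0.000240 to 0.757). The highest were those of CBS (1.18, SE 0.0613, adjusted p 2.83e-09), STC2 (1.04), PSAT1 (0.99), LARS1 (0.90) and ALDH1L2 (0.83). CEBPG, NUPR1, ASNS and AARS1 were not called, and NUPR1 was called lower without OA replicate 1 (-0.36, adjusted p 0.0198, in a range of 0.00237 to 0.812).

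Small differences between the models rested on single libraries or on the processing. MTHFD2 (-0.31, adjusted p 0.0299) lost its call without DNL replicate 1 (0.0996), DNL replicate 2 (0.104), OA replicate 2 (0.106) or OA replicate 3 (0.0958), in a range of 0.000489 to 0.732. SARS1 (-0.13, adjusted p 0.0272) lost it without DNL replicate 1 (0.0561), DNL replicate 3 (0.106), OA replicate 2 (0.0593) or OA replicate 3 (0.0909), in a range of 8.61e-06 to 0.326. EPRS1 (0.12, adjusted p 0.0325) lost it without DNL replicate 1 (0.0861), DNL replicate 2 (0.102) or OA replicate 3 (0.104), in a range of 0.00670 to 0.168. MARS1 (0.13, adjusted p 0.0497) lost it without any library other than DNL replicate 3 and OA replicate 3, at 0.0595 to 0.167. With all libraries kept, MARS1 also lost it with DESeq2 (0.0648), with the replicate number as a block (0.0718) and with thinned libraries (0.134). With no filter on low counts, MTHFD2 (0.0529) and SARS1 (0.0511) lost theirs.

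**Figure D4:**
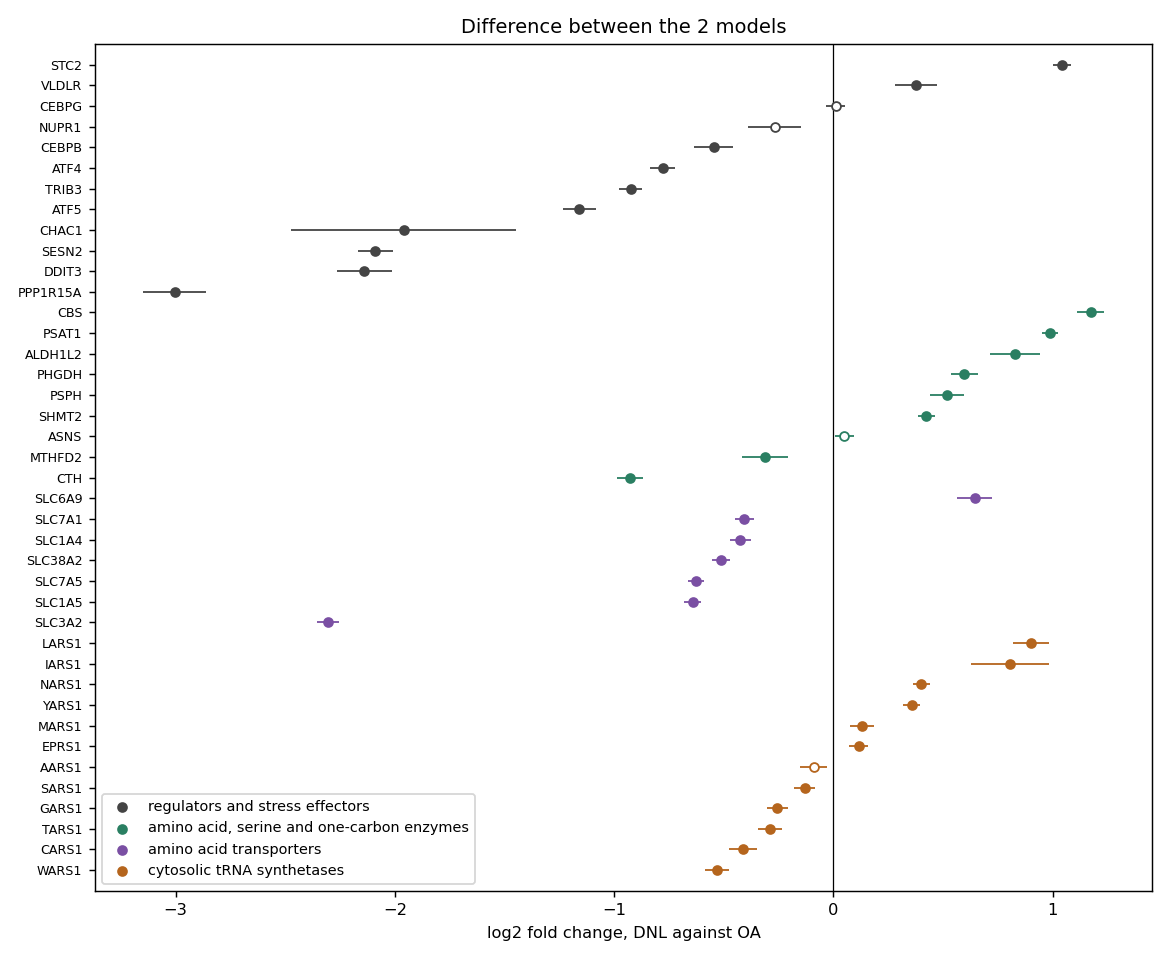
Log2 fold change of each member in DNL against OA, ordered within roles, with bars of 1 SE and filled points for called genes. Most regulators and transporters lie left of 0, down to -3.01 for PPP1R15A, and most enzymes lie right of it, up to 1.18 for CBS.

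The circuit upstream of ATF4 was followed in a list of 17 genes for eIF2 kinases, eIF2, its exchange factor eIF2B and their regulators. In DNL 4 rose and 5 fell, where 27.1% and 26.8% of all tested genes were called higher and lower. In OA 5 rose and 8 fell, where 30.4% and 29.7% of all tested genes were. These counts are not read as a result about the circuit. EIF2AK3 had 16.5, 16.9 and 7.81 CPM in DNL, 71.1, 89.7 and 66.6 CPM in OA, and 23.1, 22.4 and 22.9 CPM in WT. It was higher in every OA sample (1.74, adjusted p 0.000463) and lower in every DNL sample (-0.74, adjusted p 0.0459) than in WT. EIF2AK1, the haem-regulated kinase, rose in DNL (0.56, adjusted p 2.38e-07) and fell in OA (-0.56, adjusted p 2.34e-07). EIF2AK2, the kinase activated by double-stranded RNA, rose by 0.83 in DNL and by 0.28 in OA. EIF2AK4 was called in neither model, with 84.3 ± 1.21 CPM in DNL, 79.0 ± 9.81 in OA and 76.4 ± 0.152 in WT. PPP1R15B, the constitutive eIF2 phosphatase subunit, fell by 0.23 in DNL and rose by 0.38 in OA. EIF2S2, the beta subunit of eIF2, fell by 0.35 in DNL and by 0.46 in OA, and EIF2B4, a subunit of eIF2B, fell by 0.35 in DNL.

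Of 30 further ATF4-linked genes, 27 were tested, of which 21 fell and 2 rose in DNL and 14 fell and 6 rose in OA. The medians were -0.47 in DNL and -0.24 in OA. Over all tested genes, the shares called lower and higher were 26.8% and 27.1% in DNL, and 29.7% and 30.4% in OA. PCK2, the mitochondrial phosphoenolpyruvate carboxykinase, averaged 151 ± 2.69 CPM in DNL, 76.1 ± 1.15 in OA and 366 ± 4.51 in WT, falling 2.41-fold in DNL (adjusted p 2.08e-11) and 4.80-fold in OA (adjusted p 5.29e-13). SLC43A1, a transporter of branched-chain amino acids, fell in DNL and in OA (-0.74 and -1.40), as did AKNA (-2.02 and -1.31). ATF3, a stress-induced factor, averaged 19.8 ± 1.17 CPM in DNL, 113 ± 16.6 in OA and 26.5 ± 2.76 in WT, rising by 2.09 in OA (adjusted p 1.22e-08). HERPUD1, a factor of protein degradation at the endoplasmic reticulum, averaged 84.6 ± 8.17 CPM in DNL, 805 ± 118 in OA and 166 ± 9.71 in WT, rising by 2.28 in OA (adjusted p 2.96e-07). ALDH18A1, which makes proline precursors, rose in DNL (0.71, adjusted p 2.42e-07). SHMT1, the cytosolic counterpart of SHMT2, rose in DNL (1.08, adjusted p 0.0053) and in OA (0.75, adjusted p 0.0373). BCAT1, the branched-chain aminotransferase, was higher in DNL than in OA (0.70), and SLC38A1 was lower (-0.84).

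Other tRNA charging genes were called in both directions. Of all tested genes, 27.1% and 26.8% were called higher and lower in DNL, and 30.4% and 29.7% in OA. With so few genes, the counts below are not read as a result about these lists. Among 11 further cytosolic genes, 3 of them scaffold proteins of the synthetase complex, 4 rose and 5 fell in DNL, and 2 rose and 5 fell in OA. Their medians were 0.01 in DNL and -0.05 in OA. None of the 9 with a promoter entry held TGATGNAA. QARS1, for glutamine, rose in DNL (0.39, adjusted p 1.16e-06). HARS1, for histidine, rose in both models (0.32 and 0.43), as did RARS1, for arginine (0.17 and 0.20). AIMP1, a scaffold, averaged 41.5 ± 1.42 CPM in DNL, 50.8 ± 0.206 in OA and 141 ± 6.84 in WT and fell in both models (-1.76 and -1.47), as did FARSB, for phenylalanine (-0.83 and -1.10). Between the models VARS1, for valine, was lower in DNL than in OA (-1.37), as was KARS1, for lysine (-0.41). Among 17 mitochondrial synthetases, 1 rose and 2 fell in DNL, with a median of -0.12. In OA 3 rose and 7 fell, with a median of -0.08. RARS2 rose in DNL (0.68). SARS2 (-1.16 in DNL and -0.59 in OA) and EARS2 (-0.75 and -1.41) fell in both models. NARS2 (-1.41) fell in OA, and YARS2 (0.84) and HARS2 (0.37) rose in OA.

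**Figure D5:**
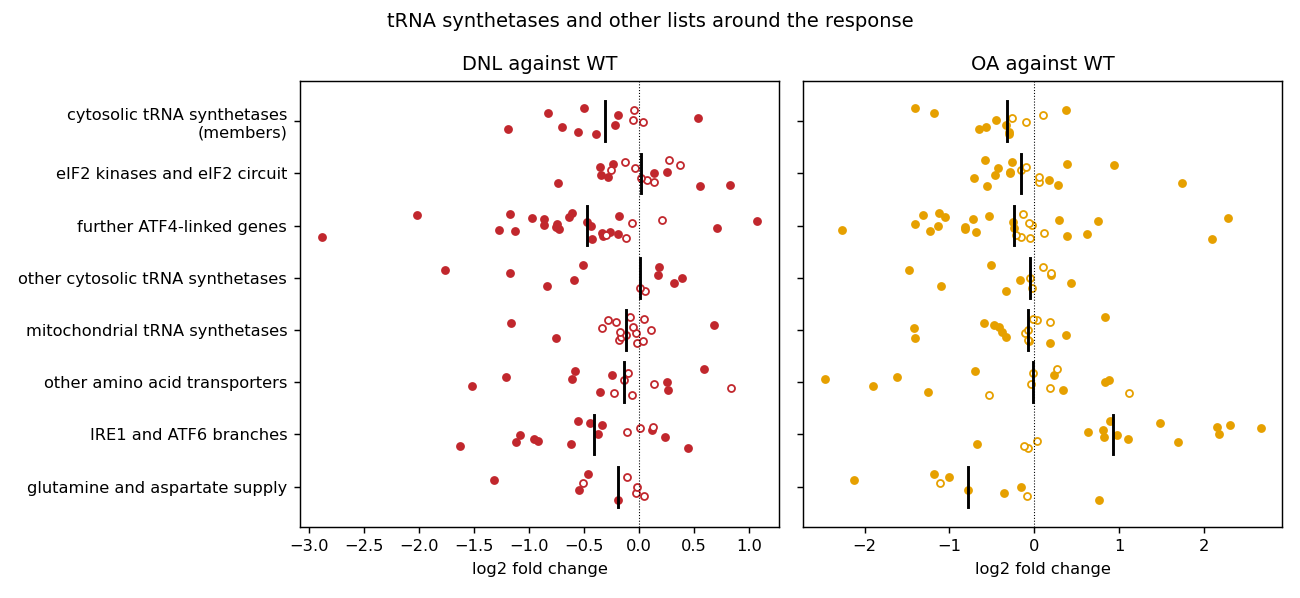
Log2 fold change of each gene in DNL against WT (left) and OA against WT (right) for the tRNA synthetases among the members and 7 lists around the response. Filled points are called genes and black lines list medians, and the IRE1 and ATF6 list lies mostly right of 0 in OA, with a median of 0.93, and left of 0 in DNL, with a median of -0.41.

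Of 15 amino acid transporters tested outside the set, 3 rose and 6 fell in DNL, where 27.1% and 26.8% of all tested genes were called higher and lower. In OA 4 rose and 5 fell, where 30.4% and 29.7% of all tested genes were. With so few genes, these counts are not read as a result about the list. SLC38A3, a glutamine transporter of hepatocytes, averaged 164 ± 8.81 CPM in DNL, 45.3 ± 0.203 in OA and 250.2 ± 9.14 in WT, falling in both (-0.60 and -2.47). SLC7A9 fell by 1.52 in DNL and SLC7A2 by 1.25 in OA, whereas the lysosomal transporter SLC36A1 rose in both (0.26 and 0.83), SLC36A4 rose in OA (0.88) and SLC7A6 rose in DNL (0.27). Among 9 genes of glutamine and aspartate supply, 4 fell in DNL and 6 fell in OA, where 26.8% and 29.7% of all tested genes did. GLUD1, glutamate dehydrogenase (-1.18), and ASS1, argininosuccinate synthase (-2.13), fell in OA. In DNL GOT1 fell by 0.55 and ASS1 by 1.31.

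The other branches of the response to misfolded protein separated the models. Among 16 genes of the IRE1 and ATF6 branches, 12 rose and 1 fell in OA, with a median log2 fold change of 0.93. In DNL 3 rose and 10 fell, with a median of -0.41. Of all tested genes, 30.4% and 29.7% were called higher and lower in OA, and 27.1% and 26.8% in DNL. HSPA5, the chaperone BiP, averaged 813 ± 20.2 CPM in DNL, 4723 ± 261 in OA and 1049 ± 20.6 in WT, and rose by 2.17 in OA (adjusted p 2.26e-12). DNAJB9, its co-chaperone, averaged 40.04 ± 0.717 CPM in DNL, 279 ± 9.99 in OA and 86.7 ± 2.19 in WT, falling by 1.12 in DNL and rising by 1.69 in OA. ATF6 itself fell in OA (-0.68, adjusted p 3.7e-06). In DNL XBP1 (0.44) and EDEM1 (0.24) rose and SEC61B fell (-0.91). Of the members, ATF5, DDIT3, TRIB3, PPP1R15A, SLC3A2 and CARS1 were called higher in OA, with TRIB3 samples overlapping WT. The part of the IRE1 and ATF6 branches in these calls was not tested.

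Spread within groups was small for most members. The median coefficient of variation over the 40 genes was 4.34% in DNL, 5.90% in OA and 3.09% in WT. Its highest value was 11.4% in DNL, 67.0% in OA and 20.6% in WT. In OA the highest was CHAC1, followed by IARS1 at 24.9%.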

How the data were processed

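Total RNA was sequenced as stranded, rRNA-depleted libraries, per the labels' protocols. The deposited values are estimated counts per gene, made by the authors with kallisto 0.48.0 after FastQC 0.11.9 on GRCh38, as the submitters' processing notes say. Neither the annotation release nor the strand setting is given in the sources used here. Counts were rounded, filtered with filterByExpr, scaled by TMM and tested with edgeR 4.0.16 (robust quasi-likelihood test, R 4.3.3) in a single fit of 9 samples over 13636 genes, with Benjamini-Hochberg adjustment. SE was derived from the F statistic. The common dispersion of 0.0112 equals 10.6% variation between replicates, and every replicate pair varied beyond sampling noise (chi-square per degree of freedom 5.29 to 15.8). The upper limit for a count of 0, taken as 3 counts, was 0.0691 to 0.356 CPM and covers counting error only. Alternatives included DESeq2 1.42.0, limma-voom (limma 3.58.1), other scalings and filters, thinned libraries and leaving out each library. The procedure was tested on simulated counts. The 40 members and the other lists were chosen with earlier results of these data known. Per-sample values are given for ATF4, 17 further genes chosen by role, and the 3 called members of each role with the largest change per direction in each comparison with WT. From other lists up to 2 genes per direction and comparison, those with the smallest adjusted p, are named, apart from an item that is not reported here. EIF2AK4, the per-sample values of EIF2AK3 and some values of named genes in their other comparison with WT were added after their values were seen. Gene coordinates are from GENCODE 29 and promoter sequences from RefSeq (GRCh38.p14).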

Additional observations from a re-analysis of the deposited data

Results flagged for a closer look

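For 5 members the models lay on opposite sides of WT, lower in DNL and higher in OA, and the direct test of DNL against OA was called for each. The log2 fold changes of DNL against OA were -1.16 for ATF5, -2.14 for DDIT3, -0.93 for TRIB3, -3.01 for PPP1R15A and -2.31 for SLC3A2. Of these, ATF5, DDIT3, PPP1R15A and SLC3A2 had all DNL samples below and all OA samples above the WT samples, while TRIB3 overlapped WT in OA. The OA libraries are those that carried collagen transcripts, and with OA replicate 1, the library with the least of them, as the lone OA library, TRIB3 was no longer called against WT (log2 fold change 0.03, adjusted p 0.640). The part of these transcripts in the differences was not tested. Groups of 3 samples were not tested for outlying samples.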

How the results depend on the processing

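Of the 40 members, 33 in DNL against WT, 31 in OA against WT and 30 in DNL against OA kept their call under every alternative run. The called members among them also kept their direction. For members not called, a change of sign was not counted. Scaling by library totals alone gave members' medians of -0.83 in DNL against WT, -0.29 in OA against WT and -0.49 in DNL against OA, and no member higher in DNL against WT (0). With no filter on low counts that count was also 0, and with DESeq2 the median in DNL against WT was -0.66. With OA replicate 1 as the lone OA library, chosen after seeing the data, the medians were -0.43 in OA against WT and -0.065 in DNL against OA. Library totals reversed MARS1 in DNL against WT (-0.13) and, in DNL against OA, CEBPG (-0.22), ASNS (-0.18), EPRS1 (-0.12) and MARS1 (-0.10); this scaling also moved the median of all genes. Leaving out 1 library at a time gave 0 to 1 higher, 33 to 35 lower and medians of -0.68 to -0.64 in DNL against WT. In OA against WT it gave 5 to 7 higher, 26 to 29 lower and medians of -0.40 to -0.35, and in DNL against OA 13 to 15 higher, 19 to 22 lower and medians of -0.30 to -0.21. Same-numbered samples share only a number: their deviations correlated at -0.02 to 0.11, and 4 of 9 samples correlated best with their own number. With the replicate number as a block, 36, 32 and 35 members were called in DNL against WT, OA against WT and DNL against OA, against 36, 32 and 36 without it. The cause of these shifts was not tested. Depth limits CHAC1 most, with 5 to 120 counts per library.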
